A study of Mus musculus with 4 samples.

Results

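The genes described are 10 antiviral restriction factors, out of 26561 genes in the deposited count table: Mx1, Mx2, Rsad2, Cmpk2, Isg20, Bst2, Ifitm1, Ifitm2, Ifitm3 and Ifi27. They were chosen by name, as interferon-inducible genes with known antiviral roles, and all 10 were found by their Ensembl identifiers. The choice was made with earlier results of these data known, so shares and medians of the set are descriptive. The cells were MC38 of WT genotype, a line derived from a colon tumour of a C57BL/6 mouse and labelled as an epithelial cell line. The IR group received 30 Gy of X-rays in 1 fraction, 60 h before RNA extraction, while the nonIR group was left unirradiated, with no harvest time given in the sources used here. Each group has 2 bulk RNA-seq libraries, and nothing in the labels says that they came from separate cultures. A p-value here therefore covers only spread between libraries, possibly technical in origin. For 7 of the 10 genes that spread came from a trend fitted over genes and not from the gene's own libraries.

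Restriction factors are a late arm of the interferon response. Interferon at its receptor activates a complex of transcription factors that binds interferon-stimulated response elements near gene starts and raises the transcription of genes whose proteins block virus entry, genome copying or release. Some factors are nearly silent until interferon acts, whereas others are also made constitutively in many cell types.

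In these data the set divided. Of the 10 genes, 6 rose after irradiation (Rsad2, Mx1, Mx2, Cmpk2, Ifi27 and Bst2), 1 fell (Ifitm2) and 3 did not pass the test (Ifitm1, Ifitm3 and Isg20). A gene rose or fell where edgeR's quasi-likelihood test gave a Benjamini-Hochberg adjusted p under 0.05 over the 15298 genes tested. By that rule 60.7% of all tested genes changed, 30.4% being higher and 30.3% lower in the irradiated libraries. All 6 rises were at least 2-fold, a rise made by 12.4% of tested genes. The median log2 fold change, irradiated over unirradiated, was 1.80 over the 10 genes and 0.01 over all tested genes. All 10 passed the filter on low counts.

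The libraries held 29180110 and 26059171 counts in the IR group and 27995608 and 29881492 in the nonIR group. Genes with any count were 22713 and 22663 in the IR libraries and 19413 and 19531 in the nonIR ones. Mitochondrial genes took 2.59% and 2.56% of counts in the irradiated libraries and 2.19% and 2.27% in the unirradiated ones. Markers of the labelled epithelial type were mixed. The 8 epithelial and colon markers, 7 in the table, summed to 75.7 and 70.0 CPM (counts per 1e+06 counts of the scaled library) in irradiated and 38.4 and 36.5 CPM in unirradiated libraries, nearly all of it Cdh1. Epcam had 0 and 1 counts in the irradiated and 0 and 0 in the unirradiated libraries, and Krt18 had 2 and 3 against 0 and 0. Markers of fibroblasts summed to 1103 and 1125 CPM in irradiated libraries and 856 and 848 CPM in unirradiated ones, with Col1a2 the highest of the 5. Markers of immune cells, in which several of these genes are strongly expressed, were close to absent. The 8 macrophage and dendritic cell markers, 6 of them in the table, summed to 28 and 28 counts in irradiated and 1 and 4 in unirradiated libraries. Of these counts Lyz2 held 23 and 20 in irradiated and 0 and 2 in unirradiated libraries. The 7 T and NK cell markers, 5 in the table, summed to 39 and 25 against 23 and 9 counts, and Cd3e had 1 and 0 against 0 and 0. Most of that sum was Ptprc (24 and 17 against 10 and 6) and Cd4 (10 and 5 against 13 and 3). The 3 B cell markers summed to 5 and 16 against 0 and 3 counts, and the 4 endothelial ones to 185 and 174 against 71 and 56. The part of any other cell type in the results was not tested. In bulk RNA, more cells expressing a gene and more RNA per cell cannot be told apart.

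The sequences below are bases just before the start of transcription of 4 members, 2 that rose with a match to the interferon response element (Rsad2 and Bst2), 1 that rose without one (Cmpk2) and 1 that fell with one (Ifitm2). They come from RefSeq on GRCm38.p6, run 5′ to 3′ on the gene's own strand over 140 bases that end at the base before the RefSeq start, and capitals mark matches to GAAANNGAAA on either strand. The windows are chr12:26456453-26456592 (minus strand) for Rsad2, chr8:71537473-71537612 (minus) for Bst2, chr12:26469075-26469214 (plus) for Cmpk2 and chr7:140955962-140956101 (minus) for Ifitm2.
Rsad2: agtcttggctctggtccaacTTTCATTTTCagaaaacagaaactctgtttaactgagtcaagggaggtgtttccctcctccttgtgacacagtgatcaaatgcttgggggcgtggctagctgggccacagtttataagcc
Bst2: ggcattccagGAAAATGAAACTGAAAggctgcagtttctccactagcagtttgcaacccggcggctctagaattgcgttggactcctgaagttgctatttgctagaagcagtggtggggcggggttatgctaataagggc
Cmpk2: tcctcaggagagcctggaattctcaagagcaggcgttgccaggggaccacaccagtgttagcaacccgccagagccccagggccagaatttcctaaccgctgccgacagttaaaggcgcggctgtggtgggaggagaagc
Ifitm2: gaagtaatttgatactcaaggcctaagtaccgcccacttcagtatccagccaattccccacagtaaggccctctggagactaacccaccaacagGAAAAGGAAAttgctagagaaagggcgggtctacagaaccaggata

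Windows of 300 bases, from 250 before to 50 after a start, were searched for 7 members, and Mx1, Mx2 and Ifi27 were not analysed in this way. GAAANNGAAA, the core of the interferon-stimulated response element, was found in 4 of the 7 genes (Rsad2, Bst2, Ifitm2 and Ifitm3), against 3.99% of 27025 genes with a window. Counting the base before the start as -1, the match lay at -120 to -111 in Rsad2 and at -46 to -37 in Ifitm2. Bst2 had 2 matches that overlap, from -130 to -121 and from -124 to -115. Ifitm3 also had 2, within its first 30 transcribed bases by RefSeq (chr7:141010715-141010744, minus strand), which read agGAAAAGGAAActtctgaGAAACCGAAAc. Cmpk2, Ifitm1 and the 3 windows of Isg20 held no such letters. The Ifitm1 window surrounds a RefSeq start at 140968076, whereas the GENCODE gene starts at 140967221. Bases before that GENCODE start were not searched. TTCNNNGAA, the core of the interferon-gamma activated site, was found in Bst2, Ifitm3 and Isg20, and in 9.55% of all genes with a window. In Bst2 and Ifitm3 it overlaps a GAAANNGAAA match by 3 bases. Matches therefore stood in genes that rose, in the gene that fell and in genes that did not pass. A match is a stretch of letters and not evidence of binding.

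The Mx genes encode dynamin-like GTPases that assemble on viral nucleoprotein complexes, and in mice Mx1 acts in the nucleus and Mx2 in the cytoplasm. C57BL/6 mice carry defective alleles of both, and RefSeq lists both as transcribed pseudogenes on the C57BL/6J assembly. GENCODE M21 lists Mx1 as protein coding and Mx2 as a polymorphic pseudogene. The transcripts were nonetheless counted. Mx1 (ENSMUSG00000000386, minus strand of chromosome 16, 97447035 to 97462907, GRCm38) had 872 and 875 counts in the irradiated libraries and 22 and 6 in the unirradiated ones. Both irradiated libraries lay far above both unirradiated ones, which themselves differed from each other. Mx1 averaged 31.1 ± 2.59 CPM after irradiation and 0.503 ± 0.420 CPM without it (SD, n = 2 libraries each). Its log2 fold change was 5.96, with an SE of 0.20 (edgeR adjusted p = 7.65e-196). DESeq2's own test gave 5.95 with a wider SE of 0.81 (adjusted p = 1.83e-12). The edgeR value was 7.20 without nonIR replicate 1 and 5.26 without nonIR replicate 2. The size of the rise, though not its call, thus rested on which unirradiated library was used.

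Mx2 (ENSMUSG00000023341, plus strand of chromosome 16, 97535308 to 97560900) had 388 and 286 counts in irradiated and 9 and 4 in unirradiated libraries. It averaged 11.9 ± 1.60 against 0.232 ± 0.135 CPM (SD, n = 2 each), with a log2 fold change of 5.67 and an SE of 0.31 (edgeR adjusted p = 1.68e-74). That value was 6.38 without nonIR replicate 1 and 5.16 without nonIR replicate 2. Mx1 carried 2.25 and 3.06 times as many counts as Mx2 in the irradiated libraries and 2.44 and 1.5 times as many in the unirradiated ones, so the ratio of the paralogs overlapped between groups. Of all 50-base stretches in annotated transcripts, 4.37% of those of Mx1 and 4.38% of those of Mx2 occur also in transcripts of another gene, mostly in each other. Reads of such stretches may be dropped or divided between the paralogs.

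Rsad2 encodes viperin, a radical S-adenosylmethionine enzyme that turns CTP into a nucleotide that ends viral RNA chains, and Cmpk2 encodes a mitochondrial kinase of UMP and CMP. The genes lie head to head with 12.8 kb between them. Rsad2 (ENSMUSG00000020641, minus strand of chromosome 12, 26442746 to 26456452) had the steepest rise of the 10, with 509 and 539 counts in irradiated and 1 and 2 in unirradiated libraries. The ratio of scaled counts was 352, with an exact (Clopper-Pearson) 95% counting interval of 120 to 1708. Rsad2 averaged 18.7 ± 2.26 CPM in irradiated and 0.0524 ± 0.0227 CPM in unirradiated libraries (SD, n = 2 each; edgeR adjusted p = 1.02e-134). By fitted fold change Rsad2 stood at rank 17 of 15298 tested genes, although the fitted fold of a gene this low without irradiation depends on the prior count.

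Cmpk2 (ENSMUSG00000020638, plus strand of chromosome 12, 26469204 to 26479837) had 441 and 413 counts in irradiated libraries and 20 and 7 in unirradiated ones. It averaged 15.2 ± 0.525 against 0.483 ± 0.345 CPM (SD, n = 2 each), a log2 fold change of 4.98 and an SE of 0.25 (edgeR adjusted p = 8.92e-86). Without nonIR replicate 1 the value was 5.94, and without nonIR replicate 2 it was 4.36. Within a library, Rsad2 had 1.15 and 1.31 counts per count of Cmpk2 after irradiation and 0.05 and 0.286 without it. The ratio was thus higher in both irradiated libraries, although in unirradiated libraries it rested on 1 and 2 counts of Rsad2. No 50-base stretch of either gene occurs in another annotated gene.

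**Figure D1:**
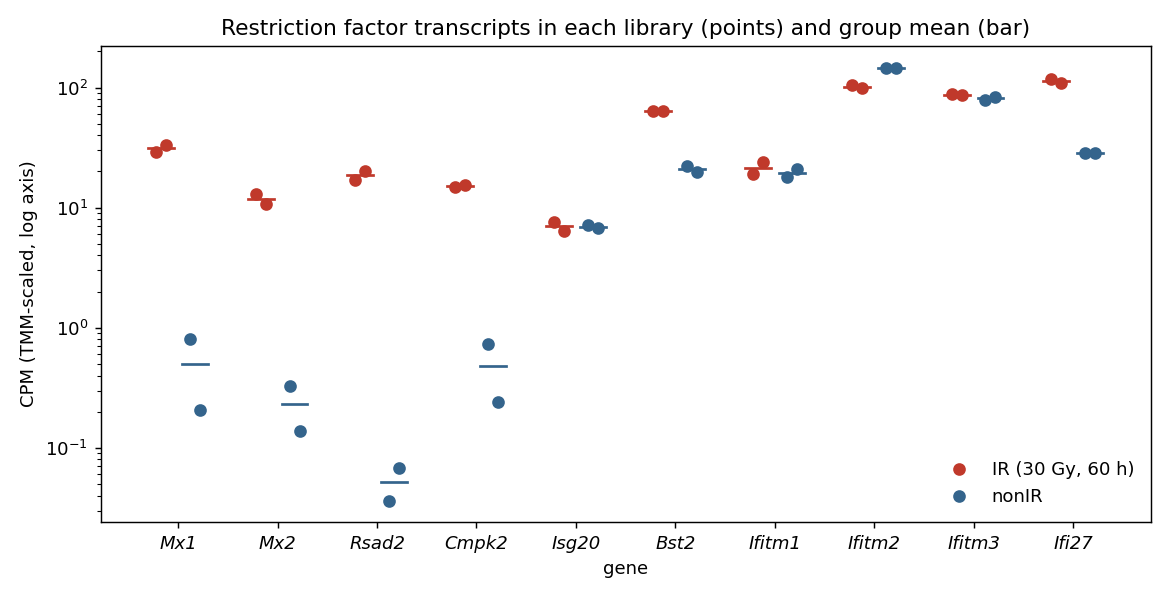
Transcript levels of the 10 genes in each library (points) and as group means (bars), in CPM on a log axis, with irradiated libraries (red) left of unirradiated ones (blue). Mx1, Mx2, Rsad2 and Cmpk2 lie between 10.8 and 32.9 CPM in irradiated libraries and below 1 CPM in unirradiated ones, whereas the points of Isg20 and Ifitm1 overlap between groups.

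Bst2 encodes tetherin, a membrane protein that holds budding virus particles on the cell surface. Bst2 (ENSMUSG00000046718, minus strand of chromosome 8, 71534255 to 71537456) was already expressed without irradiation and rose 3.06-fold. It had 1910 and 1701 counts in irradiated and 609 and 579 in unirradiated libraries, or 64.1 ± 0.0606 and 21.0 ± 1.64 CPM (SD, n = 2 each). The groups were well separated, with a log2 fold change of 1.61 and an SE of 0.08 (edgeR adjusted p = 5.17e-94).

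Ifi27 encodes a small hydrophobic protein of the ISG12 family that is strongly induced by interferon. Ifi27 (ENSMUSG00000064215, plus strand of chromosome 12, 103434211 to 103440239) rose 3.97-fold. It had 3521 and 2907 counts in irradiated and 787 and 840 in unirradiated libraries, or 114 ± 6.20 and 28.7 ± 0.0951 CPM (SD, n = 2 each). Its log2 fold change was 1.99 (SE 0.06, edgeR adjusted p = 8.74e-230). Its relative Ifi27l2a, annotated on the opposite strand across a gap of 1.9 kb, rose more steeply. Ifi27l2a had 1644 and 1551 counts in irradiated libraries and 203 and 196 in unirradiated ones, or 3.01 as log2 fold change (SE 0.10, edgeR adjusted p = 1.48e-193). Counts of Ifi27 per count of Ifi27l2a were accordingly 2.14 and 1.87 after irradiation and 3.88 and 4.29 without it, with no overlap between groups.

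The IFITM proteins sit in the plasma and endosomal membranes and hinder the fusion of enveloped viruses, with IFITM3 acting mainly in late endosomes. Their 3 genes span 55.9 kb of chromosome 7 and none of them rose, except Ifitm3 under upper quartile scaling and Ifitm1 without IR replicate 1. Ifitm2 and Ifitm3 had the highest levels of the 10 per length of exon in both groups. Ifitm2 (ENSMUSG00000060591, minus strand of chromosome 7, 140954837 to 140955987) fell to 3124 and 2612 counts in irradiated libraries, against 4030 and 4225 in unirradiated ones. It averaged 102 ± 4.63 against 146 ± 1.36 CPM (SD, n = 2 each), with a log2 fold change of -0.52 and an SE of 0.05 (edgeR adjusted p = 2.91e-27), and was the only member with both irradiated libraries below both unirradiated ones, as were 38.7% of all tested genes. The level of Ifitm2 itself is uncertain. Of its 50-base stretches 48.5% occur in other annotated genes, and 268 of its 655 exon bases are shared with the annotated gene Gm45717, which is not in the table. Among the other genes that hold such stretches, Gm11951 and Gm8865 are in the table and held at most 10 counts in any library. Ifitm3, whose far larger counts are given below, also shares stretches with Ifitm2.

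Ifitm3 (ENSMUSG00000025492, minus strand of chromosome 7, 141009586 to 141010770) had 2612 and 2299 counts in irradiated and 2162 and 2440 in unirradiated libraries, or 87.1 ± 0.806 and 81.1 ± 3.47 CPM (SD, n = 2 each). After scaling, both irradiated libraries lay slightly above both unirradiated ones, as in 39.7% of tested genes, but the log2 fold change of 0.10 (SE 0.05) did not pass (edgeR adjusted p = 0.0852). With upper quartile factors in place of TMM it was 0.18 and passed (adjusted p = 0.0025), and over the 10 alternatives the adjusted p ran from 0.0025 to 0.574. Ifitm1 (ENSMUSG00000025491, plus strand of chromosome 7, 140967221 to 140969825) had 571 and 635 counts in irradiated and 499 and 610 in unirradiated libraries, or 21.5 ± 3.35 and 19.5 ± 1.93 CPM (SD, n = 2 each). Its groups overlapped, and the log2 fold change of 0.14 (SE 0.11) did not pass (edgeR adjusted p = 0.261). It was 0.29 without IR replicate 1 (adjusted p = 0.0417) and -0.033 without IR replicate 2 (adjusted p = 0.85), with a range of 0.0417 to 0.883 over the alternatives.

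Ratios within a library do not depend on how libraries are scaled. Ifitm3 had 0.836 and 0.880 counts per count of Ifitm2 in the irradiated libraries and 0.536 and 0.578 in the unirradiated ones. Ifitm1 had 0.183 and 0.243 against 0.124 and 0.144. Both ratios were higher in each irradiated library than in either unirradiated one, which shows unequal change in counts within the family and not which gene moved. Reads of stretches shared within the family may be dropped or divided, and their part in these ratios was not tested. Ifitm3 per Ifitm1 was 4.57 and 3.62 against 4.33 and 4 and overlapped between groups. As a share of the summed CPM of the 10 genes, not corrected for length, the 3 Ifitm genes held 44.5% and 44.6% in irradiated and 80.3% and 81.7% in unirradiated libraries. Mx1, Mx2, Rsad2 and Cmpk2 together held 15.6% and 17% against 0.624% and 0.213%, and the sum itself was 476 and 468 CPM against 303 and 305 CPM.

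**Figure D2:**
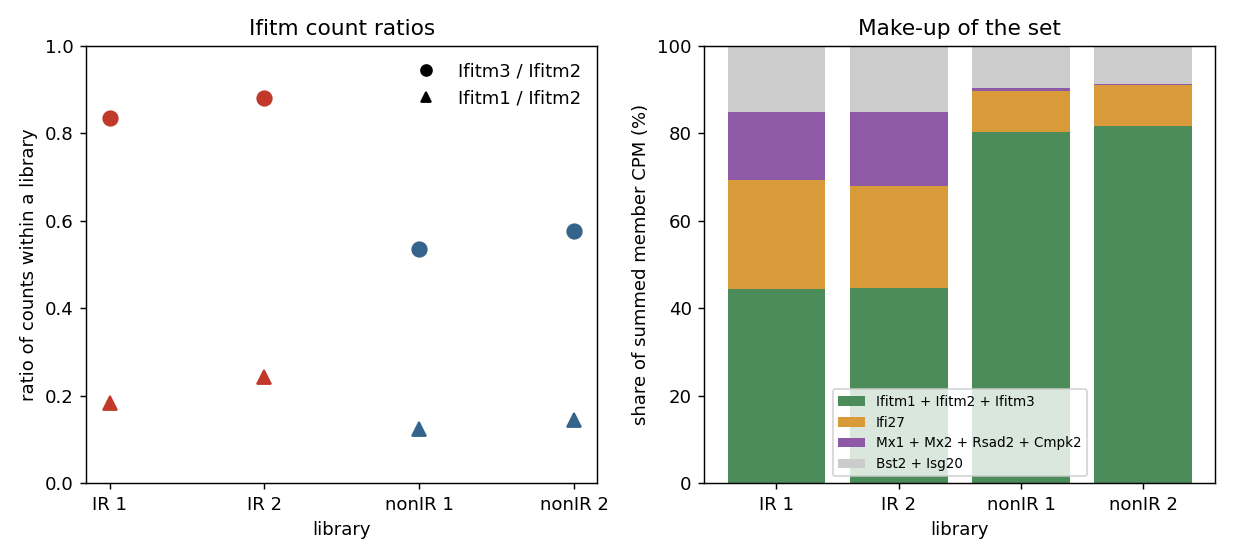
Left, counts of Ifitm3 (circles) and Ifitm1 (triangles) per count of Ifitm2 in each library, irradiated in red and unirradiated in blue, with both ratios higher in the irradiated libraries. Right, share of the summed CPM of the 10 genes in each library, where the Ifitm genes hold 44.5% and 44.6% in irradiated and 80.3% and 81.7% in unirradiated libraries.

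Isg20 encodes a 3′ to 5′ exonuclease that degrades single-stranded RNA. Isg20 (ENSMUSG00000039236, plus strand of chromosome 7, 78913424 to 78920396) had 228 and 171 counts in irradiated and 198 and 196 in unirradiated libraries, or 7.04 ± 0.860 and 6.95 ± 0.347 CPM (SD, n = 2 each). The irradiated values lay on either side of the unirradiated ones, and the log2 fold change of 0.02 (SE 0.18) did not pass (edgeR adjusted p = 0.931). The SE was larger than that of Bst2, Ifi27 or the Ifitm genes, which had more counts. No 50-base stretch of Isg20, Bst2 or Ifi27 occurs in another annotated gene.

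Levels of different genes were compared as CPM per kilobase of annotated exon. In irradiated cells the order was Ifitm2 (155 ± 7.07), Ifitm3 (128 ± 1.19), Ifi27 (77.6 ± 4.23), Bst2 (70.9 ± 0.0671), Ifitm1 (19.7 ± 3.06), Mx1 (8.22 ± 0.685), Rsad2 (4.31 ± 0.522), Isg20 (3.79 ± 0.463), Cmpk2 (3.64 ± 0.126) and Mx2 (3.29 ± 0.442; SD, n = 2 for each). From Rsad2 downwards, each gene's libraries overlapped with those of the next gene in the order, so those ranks are not resolved. In unirradiated cells Ifitm2 (222 ± 2.08) and Ifitm3 (120 ± 5.11) also came first, followed by Bst2 (23.2 ± 1.82), Ifi27 (19.6 ± 0.0649), Ifitm1 (17.8 ± 1.77) and Isg20 (3.74 ± 0.187). Mx1 (0.133 ± 0.111), Cmpk2 (0.116 ± 0.0828), Mx2 (0.0642 ± 0.0372) and Rsad2 (0.0121 ± 0.00523) stood last there, with Mx1, Cmpk2 and Mx2 overlapping their neighbours in the order. After irradiation the levels of Isg20 and of Rsad2 and Cmpk2 thus overlapped, whereas without it Isg20 stood far above both.

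Relatives of the members by family or fold went several ways. Of 10 listed, 9 were in the table and 7 were tested, of which 2 rose, 3 fell and 2 did not pass. Over all tested genes 30.4% rose and 30.3% fell, and the split of these 7 was not tested against those shares. Besides Ifi27l2a, Ifitm6 rose, with 32 and 33 counts in irradiated and 9 and 6 in unirradiated libraries (log2 fold change 2.11, SE 0.65, edgeR adjusted p = 0.0024). That call was lost without IR replicate 2 (adjusted p = 0.0643), the highest adjusted p of its alternatives, the lowest being 0.0017. Ifitm10 had 26 and 41 against 40 and 50 counts and did not pass (-0.40, adjusted p = 0.434), and Ifitm5, with 9 and 26 against 4 and 10 counts, was below the filter and not tested. The exonuclease relatives Aen and Isg20l2 fell, with log2 fold changes of -0.59 (adjusted p = 5.02e-06) and -0.42 (adjusted p = 3.94e-13), and Rexo4 had -0.07 and did not pass (adjusted p = 0.369). Cmpk1, the cytosolic counterpart of Cmpk2, fell to 2388 and 1999 counts in irradiated libraries, against 2865 and 3202 in unirradiated ones (-0.46, adjusted p = 1.58e-17).

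**Figure D3:**
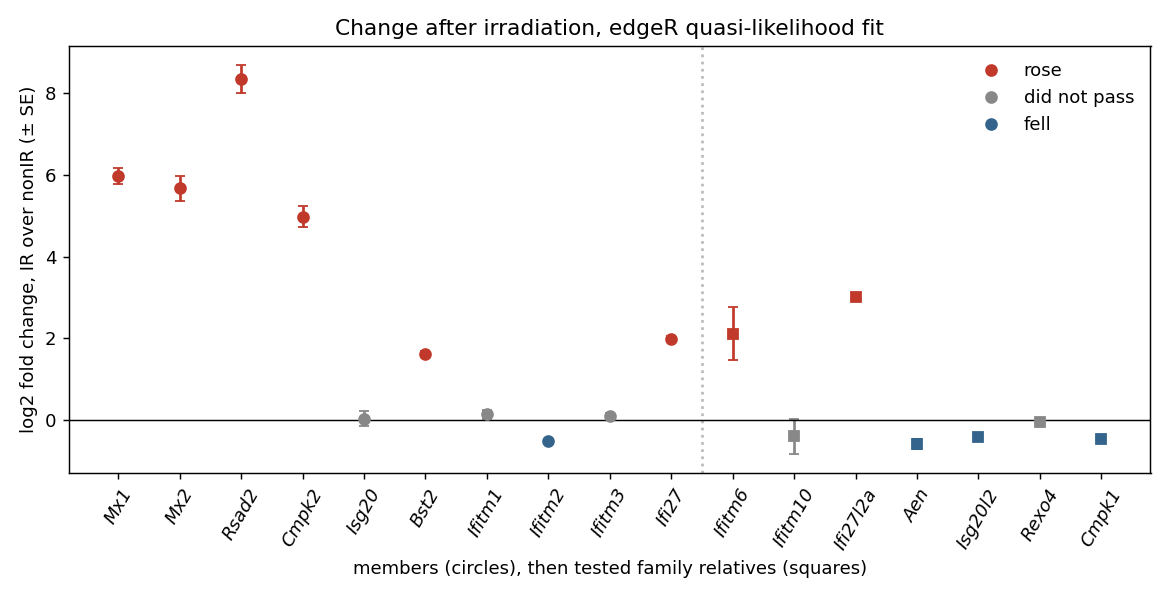
Log2 fold change of irradiated over unirradiated cells with its standard error for the 10 members (circles, left of the dotted line) and their 7 tested relatives (squares). Red marks genes that rose, blue genes that fell and grey genes that did not pass; the members run from 8.35 for Rsad2 to -0.52 for Ifitm2.

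Nearest tested genes on either side, chosen after values were seen, show what else lay at these loci. Fam3b, which lies between Mx1 and Mx2, had 16 and 15 counts in irradiated and 1 and 7 in unirradiated libraries (log2 fold change 1.94, edgeR adjusted p = 0.0352). Bace2, 4.1 kb from Mx1 on its other side, had 13 and 18 against 1 and 2 counts (3.29, adjusted p = 0.0023). Both rose but stayed under 1 CPM, and the irradiated libraries held more genes with any count. Plvap, 22.5 kb from Bst2, rose by 1.60 on the log2 scale, with 49 and 45 counts in irradiated and 15 and 16 in unirradiated libraries (adjusted p = 0.0033), and Mvb12a, 5.5 kb away on the other side, fell (-0.27, adjusted p = 1.67e-04). Bst2 itself had a log2 fold change of 1.61. Ddx24, 8.4 kb from Ifi27, rose by 0.37 on the log2 scale (adjusted p = 1.66e-15), far less than Ifi27 itself. Isg20 lies 2.2 kb from Aen, which fell as given above, and Ifitm2 lies 7.2 kb from Pgghg, which also fell (-0.74, adjusted p = 4.16e-09). The neighbours Mfge8, Prdm15, Id2 and Dcdc2c lay farther off, at 213.4 to 1958 kb.

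Other antiviral effectors moved mostly upwards. Of 26 listed genes 24 were tested, with a median log2 fold change of 1.12. Of the tested genes 23 rose and 1 fell, against 30.4% and 30.3% of all tested genes. The list was chosen with earlier results of these data known. The rises named by the naming rule were Oasl2 and Ifit3. Oasl2, of the 2′-5′ oligoadenylate synthetase family, had 1764 and 1696 counts in irradiated and 9 and 35 in unirradiated libraries (log2 fold change 6.30, SE 0.15, edgeR adjusted p below 1e-300). Ifit3, a partner of other IFIT proteins, rose by 5.73 (SE 0.15, edgeR adjusted p = 1.41e-294). Tdrd7, a tudor domain protein, was the gene that fell (-0.17, SE 0.05, adjusted p = 2.96e-04). Among the smaller rises, named with their values in view, were Mov10, an RNA helicase (0.39), and Serinc5, a membrane protein taken up into virus particles (0.36).

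Genes of the interferon receptor and its signalling were also mostly higher. Of 13 tested, 9 rose, 2 fell and 2 did not pass, with a median log2 fold change of 1.23. Over all tested genes 30.4% rose and 30.3% fell. This list too was chosen with earlier results of these data known. Irf7, an interferon regulatory factor, had 868 and 799 counts in irradiated and 65 and 50 in unirradiated libraries (3.86, SE 0.15, edgeR adjusted p = 3.02e-134), and Stat2, a transcription factor of the pathway, rose by 1.97 (SE 0.06, adjusted p = 1.13e-201). The feedback inhibitor Socs3 fell (-0.57, SE 0.09, adjusted p = 6.21e-10), and so did Socs1, likewise named with its values in view (-0.39, adjusted p = 0.011). Other regulators of the list, also named with values in view, rose. These were Usp18 (5.15, SE 0.36, edgeR adjusted p = 1.36e-44) and Ptpn6 (1.59, SE 0.18, edgeR adjusted p = 3.34e-17). The call of Socs1 was lost without nonIR replicate 1 (adjusted p = 0.153) and without IR replicate 2 (adjusted p = 0.0932), with a lowest value of 0.0085 among its alternatives. The receptor chain Ifnar1 did not pass (0.01, adjusted p = 0.916). Of 9 interferon genes listed, 3 were in the table and none passed the filter. Ifnb1 had 17 and 8 counts in irradiated and 0 and 0 in unirradiated libraries, at least 8.39-fold higher against a floor of 3 counts over the unirradiated group.

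**Figure D4:**
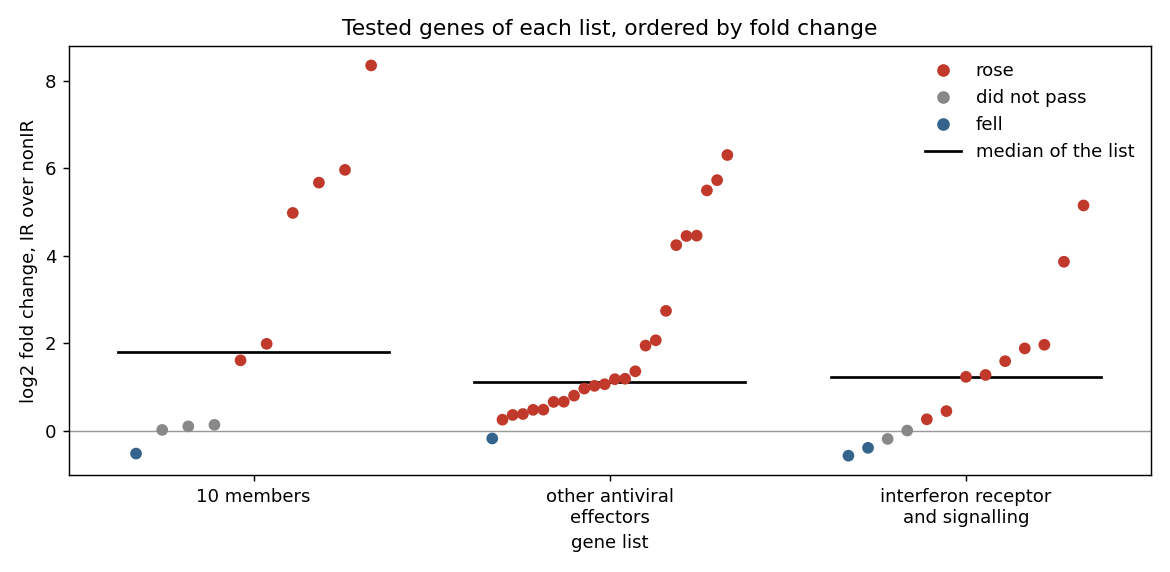
Log2 fold change of irradiated over unirradiated cells for the tested genes of 3 lists, each ordered by fold change, with the list's median as a bar. The 10 members have a median of 1.80, the 24 other antiviral effectors 1.12 and the 13 receptor and signalling genes 1.23, and each list holds genes that rose and at least 1 that fell.

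The genes nearest in pattern to the members were Irf7 (distance 0.140), Igtp (0.149) and Fam129a (0.234). Likeness was the Euclidean distance over the 4 libraries between a gene's log2(CPM + 1) values, centred on its mean, and the median centred profile of the 7 members that passed the test, among genes with a mean of at least 5 CPM. Igtp, an immunity-related GTPase, averaged 25.5 ± 0.518 CPM in irradiated and 1.66 ± 0.171 CPM in unirradiated libraries, and Fam129a 38.6 ± 0.613 and 2.98 ± 0.00273 CPM (SD, n = 2 each). With 4 libraries in 2 groups, this likeness reflects little beyond the size of the rise.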

How the data were processed

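The authors deposited raw counts, whole numbers for each Ensembl gene in each of the 4 libraries. Per the submitters' processing notes, the tools were HISAT, HISAT2, DESeq2 and HTSeq and the genome build was mm10, with no roles given. The sources used here do not give the annotation release, the strand setting or the treatment of reads with several matches, so reads of near-identical copies may be dropped or divided. Groups came from sample titles. The description of nonIR replicate 2 repeats the number of the other unirradiated sample, and its title, which matches its column, was followed. Symbols, coordinates and exon lengths came from GENCODE M21 (GRCm38, the same build), and 159 genes had no symbol. Promoter sequences came from RefSeq (GRCm38.p6), for 7 of the 10 members.

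Counts were tested in R 4.3.3 with edgeR 4.0.16, using filterByExpr by group (11263 genes left out), TMM factors, robust glmQLFit and glmQLFTest with irradiation as the only term, Benjamini-Hochberg over 15298 genes. The steps were run on simulated data in which few genes changed, evenly up and down. In these data most tested genes changed, so that run does not bear on the choice of scaling. Standard errors are the absolute log2 fold change over the square root of F. For 13772 tested genes, 7 members among them, the prior degrees of freedom were infinite, so the spread came from the fitted trend. Replicate libraries differed beyond sampling noise (mean chi-square per gene 4.73 in IR and 3.38 in nonIR). Intervals and floors cover counting error only.

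The members and lists were chosen with earlier results of these data known, and 1 gene of the signalling list is not reported here. The genes named are the 10 members, the 2 largest rises and the largest fall of each other list at a mean of at least 5 CPM, relatives and interferon genes with at least 10 counts, the 3 nearest profiles and neighbours bearing on a member's counts. Alternatives were DESeq2 1.42.0, other scaling factors, no filter, a replicate block, no robust estimation and leaving out each library.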

Additional observations from a re-analysis of the deposited data

How the results depend on the processing

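Over 10 alternatives the number of members that rose was 6 or 7, and 1 fell in each. It was 7 with upper quartile factors, by Ifitm3, and without IR replicate 1, by Ifitm1, and 6 to 7 when leaving out each library. Isg20 turned to -0.039 without nonIR replicate 2 and to -0.11 without IR replicate 1, and Ifitm1 to -0.033 without IR replicate 2, none past the threshold; the cause was not tested. Leaving out each library, Ifitm1 ran from -0.033 to 0.29 and Isg20 from -0.11 to 0.13 on the log2 scale. Of the relatives 1 to 2 rose and of the interferon signalling genes 1 to 3 fell when leaving out each library, which also leaves fewer samples. Genes changed in all were 9289, and 8135 to 9301 over the alternatives, with 8740 by DESeq2's own test. Of the changed genes 50.1% were higher, and 57.3% with upper quartile factors (5303 higher and 3945 lower). The same replicate numbers showed no sign of pairing (correlation of deviations across genes -0.0045). With 2 libraries per group that value cannot exclude that same-number libraries were prepared together. With the replicate block 9026 genes changed, and the members' calls were 6 higher and 1 lower. Counts of 1 to 22 in unirradiated libraries limit the folds of Mx1, Mx2, Rsad2 and Cmpk2. For these genes DESeq2's own test gave wider SEs than edgeR, though the calls held. The DESeq2 SE was 0.81 for Mx1, 0.45 for Mx2 (adjusted p = 4.44e-35), 0.85 for Rsad2 (adjusted p = 3.00e-22) and 0.62 for Cmpk2 (adjusted p = 1.05e-14).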
